A study of Saccharomyces cerevisiae with 4 samples.

Results

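The transcripts of the 9 genes that encode the G1, S-phase and mitotic cyclins of budding yeast were compared between *esl1Δ esl2Δ* cells and the wild-type. Each gene was found on the array by its open reading frame name, paired with the gene symbol through the RefSeq gene table. All 9 were found, each with 1 probe, among 6254 genes with values in all replicates. They comprise 3 G1 cyclins (*CLN1*, *CLN2* and *CLN3*), 2 S-phase cyclins (*CLB5* and *CLB6*) and 4 mitotic cyclins (*CLB1*, *CLB2*, *CLB3* and *CLB4*).

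The *esl1Δ esl2Δ* strain had *ESL1* replaced by *KAN* and *ESL2* by *NAT*. Both genes encode proteins that resemble the telomerase subunit Est1 and carry a PIN-type nuclease domain. It and its wild-type parent, Y52, were *MATa* haploids related to W303-1A that carried *RAD5*, needed adenine (*ade2-1*), leucine (*leu2-3, 122*), tryptophan (*trp1-1*) and uracil (*ura3-1*), and had the *can1-100* allele. Cells were taken in log phase from YPD with 2% glucose at 30°. RNA of both strains was hybridized to the same array in different dyes, in 3 replicates. The mutant carried the red dye and the wild-type the green dye in replicates 1 and 2 and on the first array of replicate 3. Another array repeated replicate 3 with the dyes exchanged, and it was averaged into that replicate. In replicates 1 and 2 strain and dye therefore cannot be told apart, whereas replicate 3 averages both dye orders. No source states whether the replicates came from separate cultures, so the p-values measure the spread between these samples, which may be technical. The labels name no step that synchronized the cells. Each value is therefore an average over all phases, and fewer cells in a phase and less RNA per cell cannot be told apart.

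Cyclins are the regulatory subunits that switch on the cyclin-dependent kinase Cdc28 and direct it to its substrates. Cln3 acts early in G1, where with Cdc28 it frees the transcription factor SBF (Swi4 and Swi6) from the repressor Whi5. SBF and the related factor MBF (Mbp1 and Swi6) then drive *CLN1*, *CLN2*, *CLB5* and *CLB6*. Clb5 and Clb6 start DNA replication, Clb3 and Clb4 act in S phase and in spindle assembly, and Clb1 and Clb2 drive mitosis, with their own genes under the control of Mcm1, Fkh2 and Ndd1. Most of these mRNAs are known to peak in 1 part of the cycle, and Cln3 is known for its dependence on growth rate and carbon source.

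No cyclin passed the test for a change in *esl1Δ esl2Δ* cells. The mean log2 ratios of mutant over wild-type lay between −0.16 for *CLB2* and 0.26 for *CLB5*. All 9 of the 95% limma intervals held 0 and all 9 lay within 2-fold, from 0.687-fold at the lowest lower bound to 1.60-fold at the highest upper bound. For 8 of the 9 genes the interval also lay within 1.5-fold, the exception being *CLB6*. By limma with Benjamini-Hochberg adjustment over all genes, the adjusted p ranged from 0.401 to 0.994. Thus 0 of 9 cyclins were called, against 0.112% of all 6254 genes (7 genes, with 0.032% higher and 0.0799% lower). The deleted genes *ESL1* and *ESL2* were among those called as lower. At an unadjusted p below 0.05 there were also 0 of 9 cyclins, against 13.3% of all genes (7.91% higher and 5.39% lower). Likewise 0 of 9 had a mean past 2-fold, against 0.799% of all genes, and 0 of 9 had a mean past 1.5-fold, against 3.76%. With 3 replicates, the smallest p that an exact sign-flip test allows is 0.25. A small change could have been missed. In simulated data limma recovered 80% of genes changed by a log2 ratio of 1 but 0% of those changed by 0.5. The simulated replicates were independent and alike, whereas the real ones agreed unequally, so these shares may not hold for the arrays. There 7 genes were called although 0.799% had a mean past 2-fold, so a gene with a larger change could go uncalled as well. Which of those means are true changes is not known, so this gives no rate of missed changes. For the cyclins all 9 intervals lay within 2-fold.

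**Figure D1:**
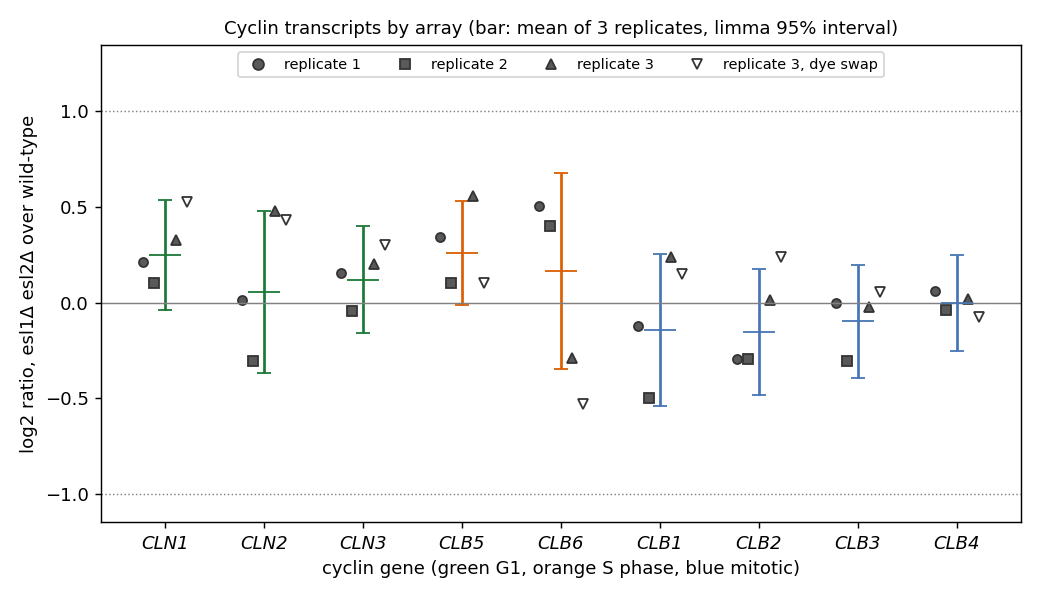
Log2 ratio of *esl1Δ esl2Δ* over wild-type for each cyclin on each of the 4 arrays (points) with the mean of 3 replicates and its 95% limma interval (bar), the dotted lines marking 2-fold. All intervals cross 0 and stay inside 2-fold, and the points of *CLB6* split into replicates 1 and 2 above 0 and both arrays of replicate 3 below it.

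All 9 probes were well above background in both strains on all 4 arrays, with 2 or 3 spots each, and spots of the same probe differed by an SD of at most 0.151 in log2 ratio. In total 2 cyclin spots were left out as outliers, 1 of *CLN3* and 1 of *CLB3*. The deleted genes *ESL1* and *ESL2* had log2 ratios of −4.50 ± 0.23 and −3.76 ± 0.20 (SD, n = 3). Across all genes, which are not independent replicates, the log2 ratios correlated at 0.681 between replicates 1 and 2, but at 0.101 between 1 and 3 and at 0.214 between 2 and 3. For the cyclins the sign of the ratio was the same in replicates 1 and 2 for 6 of 9 genes, in 1 and 3 for 4, and in 2 and 3 for 3. The array of replicate 3 and its dye swap gave the same sign for 7 of 9, and across all genes their log2 ratios correlated at 0.844. All 4 arrays lay on 1 slide, so no slide effect could be estimated.

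Among the G1 cyclins, *CLN1* (YMR199W), which drives entry into the cell cycle, was higher in *esl1Δ esl2Δ* cells in each replicate. It had log2 ratios of 0.21, 0.10 and 0.43 across the replicates, averaging 0.25 ± 0.16 (SD, n = 3; 95% interval −0.04 to 0.53), and limma gave an adjusted p of 0.436. On the normalized log2 intensity scale it stood at 13.14, 12.56 and 12.79 in *esl1Δ esl2Δ* cells and at 12.93, 12.46 and 12.37 in the wild-type. The groups overlapped, although each mutant value lay above that of the wild-type on the same array.

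*CLN2* (YPL256C), the close paralog that acts with *CLN1* in late G1, did not keep 1 direction. Its log2 ratios of 0.01, −0.31 and 0.46 averaged 0.05 ± 0.38 (SD, n = 3; 95% interval −0.37 to 0.48), and the limma adjusted p was 0.912. Both arrays of replicate 3 were high, at 0.48 on the first array and 0.43 on the dye swap. Its log2 levels were 11.52, 11.66 and 12.33 in *esl1Δ esl2Δ* cells and 11.51, 11.97 and 11.88 in the wild-type. The ratio of *CLN2* minus that of *CLN1* was −0.20, −0.41 and 0.03, with a mean of −0.19 and an SD of 0.22. Whether a probe also binds the transcript of the paralog was not tested, here or for *CLB1* and *CLB2*, *CLB3* and *CLB4*, or *CLB5* and *CLB6*.

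*CLN3* (YAL040C), the upstream activator of the G1 program, gave log2 ratios of 0.15, −0.05 and 0.25. These averaged 0.12 ± 0.15 (SD, n = 3; 95% interval −0.16 to 0.40), with a limma adjusted p of 0.686. In *esl1Δ esl2Δ* cells its log2 level was 9.71, 9.44 and 9.78, whereas the wild-type was nearly constant at 9.55, 9.49 and 9.52. Of the 9 cyclins it had the smallest range in the wild-type, 0.065, against a median of 0.651 over all genes.

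Of the S-phase cyclins, *CLB5* (YPR120C), the main driver of origin firing, had the highest mean ratio of the 9 and was the other cyclin that was higher in all replicates. The log2 ratios of 0.34, 0.10 and 0.33 averaged 0.26 ± 0.13 (SD, n = 3; 95% interval −0.02 to 0.53), and limma gave an unadjusted p of 0.0598 and an adjusted p of 0.401. By size of the mean it ranked 1471 of 6254 genes. The value of replicate 3 is an average of 0.56 on the first array and 0.10 on the dye swap, the largest gap between these arrays among the cyclins. Its log2 level was 11.71 and 11.28 in *esl1Δ esl2Δ* cells of replicates 1 and 2, against 11.37 and 11.18 in the wild-type. In replicate 3 it was 11.13 on the first array and 10.87 on the dye swap in *esl1Δ esl2Δ* cells, against 10.57 and 10.77 in the wild-type, so that the groups overlapped. With *CLN1*, 2 of 9 cyclins were higher in all 3 replicates, against 18.7% of all genes, and 0 of 9 were lower in all 3, against 18.5%. Thus 2 of 9 kept 1 sign, against 37.1% of all genes.

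*CLB6* (YGR109C), the paralog of *CLB5* that is degraded earlier, varied most among the cyclins. It was higher in *esl1Δ esl2Δ* cells in replicates 1 and 2, by log2 ratios of 0.51 and 0.40. In replicate 3 the log2 ratio was −0.41, and both the first array (−0.29) and the dye swap (−0.53) were below 0. The ratios averaged 0.17 ± 0.50 (SD, n = 3; 95% interval −0.35 to 0.68), and the limma adjusted p was 0.759. By the SD over replicates it ranked 553 of 6254 genes. Its log2 level in *esl1Δ esl2Δ* cells, 8.52, 8.96 and 8.97, had a range of 0.445, against a range of 1.36 in the wild-type, which stood at 8.02, 8.56 and 9.38. The spots had mean intensities of 370 to 704 in *esl1Δ esl2Δ* cells and 240 to 850 in the wild-type, over a local background of 18.5 to 50. These intensities are not normalized and mix the dyes, so the ranges do not compare the strains. Both the 370 (green) and the 850 (red) came from the dye swap. The ratio of *CLB6* minus that of *CLB5* was 0.16, 0.29 and −0.74.

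Replicate 3 decided the call of *CLB6*. Without it the log2 ratio was 0.45 (95% interval 0.20 to 0.70) and the adjusted p from limma was 0.0469. Without that replicate, however, 10.6% of all genes were called, 5.16% as higher and the rest as lower. *CLB6* was the 1 cyclin among them.

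The mitotic cyclins had means near or below 0. *CLB1* (YGR108W) showed log2 ratios of −0.12, −0.50 and 0.19, averaging −0.14 ± 0.35 (SD, n = 3; 95% interval −0.54 to 0.26), and the limma adjusted p was 0.735. Its level differed more between replicates than between strains. The log2 level was 11.89, 13.08 and 12.24 in *esl1Δ esl2Δ* cells and 12.01, 13.58 and 12.05 in the wild-type, so that replicate 2 was high in both strains. A wild-type range of at least the 1.57 seen here was found in 5.10% of all genes. Both strains of a replicate share an array, so a difference between arrays and one between cultures cannot be told apart here.

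*CLB2* (YPR119W), the main mitotic cyclin, had the lowest mean ratio. The log2 ratios of −0.30, −0.30 and 0.13 averaged −0.16 ± 0.24 (SD, n = 3; 95% interval −0.49 to 0.17), and the limma adjusted p was 0.652. Its log2 level was 10.47, 10.63 and 11.18 in *esl1Δ esl2Δ* cells and 10.76, 10.93 and 11.06 in the wild-type. The mutant value lay below that of the wild-type in replicates 1 and 2 and above it in replicate 3. Without replicate 3 the log2 ratio was −0.30, with an adjusted p of 0.115 from limma. In that fit 10.6% of all genes had an adjusted p below 0.05, and *CLB2* was not among them. The mutant carried the red dye on both arrays left, so strain and dye cannot be told apart in this value. *CLB1* minus *CLB2*, which are paralogs with shared regulation, was 0.01 ± 0.19 in log2 ratio.

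*CLB3* (YDL155W), which acts in spindle assembly, had log2 ratios of −0.00091, −0.31 and 0.02 that averaged −0.10 ± 0.18 (SD, n = 3; 95% interval −0.39 to 0.20), and the limma adjusted p was 0.753. Its log2 level was 12.41, 12.02 and 11.71 in *esl1Δ esl2Δ* cells and 12.41, 12.32 and 11.69 in the wild-type. The strains lay close together except in replicate 2. *CLB4* (YLR210W), its paralog, had the smallest SD of the 9. Its log2 ratios were 0.06, −0.04 and −0.03, averaging −0.0023 ± 0.056 (95% interval −0.25 to 0.25), and the limma adjusted p was 0.994. In *esl1Δ esl2Δ* cells its log2 level was 10.80, 10.97 and 10.63, against 10.73, 11.01 and 10.66 in the wild-type.

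**Figure D2:**
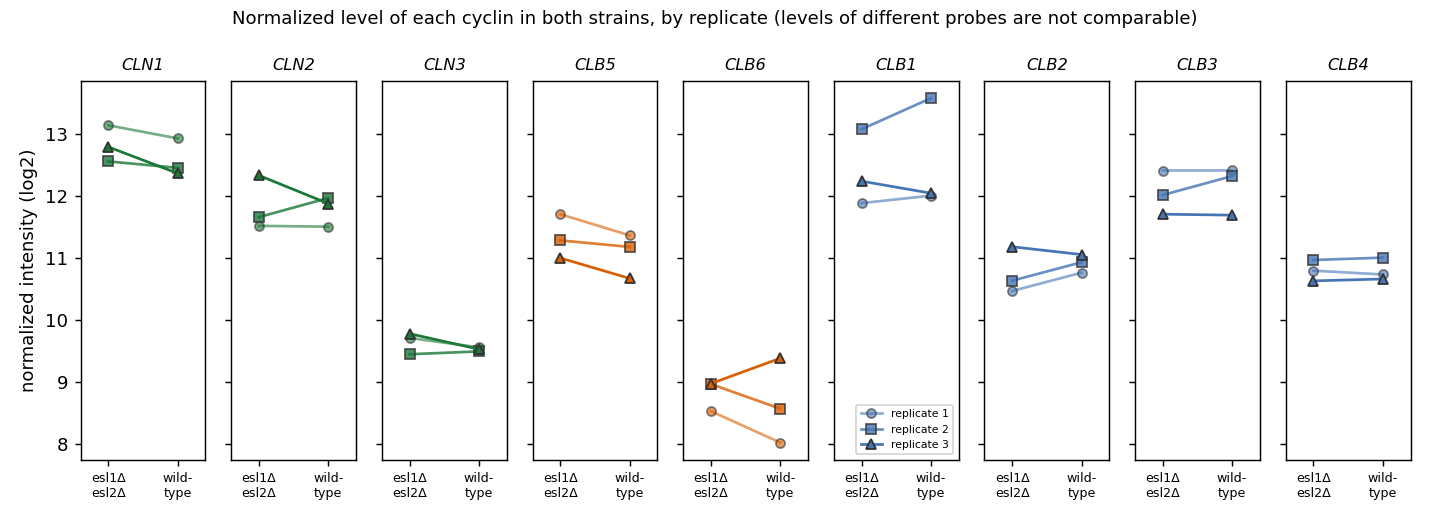
Normalized log2 intensity of each cyclin in *esl1Δ esl2Δ* cells and in the wild-type, with a line for each replicate. The lines of *CLB1* are far apart, with replicate 2 high in both strains, and those of *CLB6* slope in opposite directions in replicate 3 and in the other replicates.

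In order of the mean log2 ratio the cyclins ran *CLB5*, *CLN1*, *CLB6*, *CLN3*, *CLN2*, *CLB4*, *CLB3*, *CLB1* and *CLB2*. Neighbors in this order differed by at most 0.09, and the SDs over replicates ran from 0.056 to 0.501. The median of the 9 means was 0.05, against −0.0047 over all genes, and the median size of a mean was 0.142, against 0.135. The median SD was 0.181 for the cyclins and 0.204 over all genes.

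The 3 classes were set side by side as the mean log2 ratio of their members. The G1 class stood at 0.13, −0.08 and 0.38 in replicates 1 to 3, the S-phase class at 0.42, 0.25 and −0.04, and the mitotic class at −0.09, −0.29 and 0.08. For no class did the mean exceed the spread between replicates, with 0.14 ± 0.23 for G1, 0.21 ± 0.24 for S phase and −0.10 ± 0.18 for mitotic cyclins (SD, n = 3 replicates). The S-phase class was highest in replicates 1 and 2 and lowest in replicate 3. The difference between the G1 and the mitotic class varied least. It was 0.21, 0.20 and 0.30 in the replicates, averaging 0.24 ± 0.05, and 0.33 on the dye swap alone. The S-phase class exceeded the mitotic class by 0.51 and 0.54 in replicates 1 and 2 and differed from it by −0.12 in replicate 3, where the arrays disagreed in sign, with 0.07 on the first array and −0.30 on the dye swap. These class differences describe 9 genes chosen with earlier results of the arrays known, and no p is given for them.

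**Figure D3:**
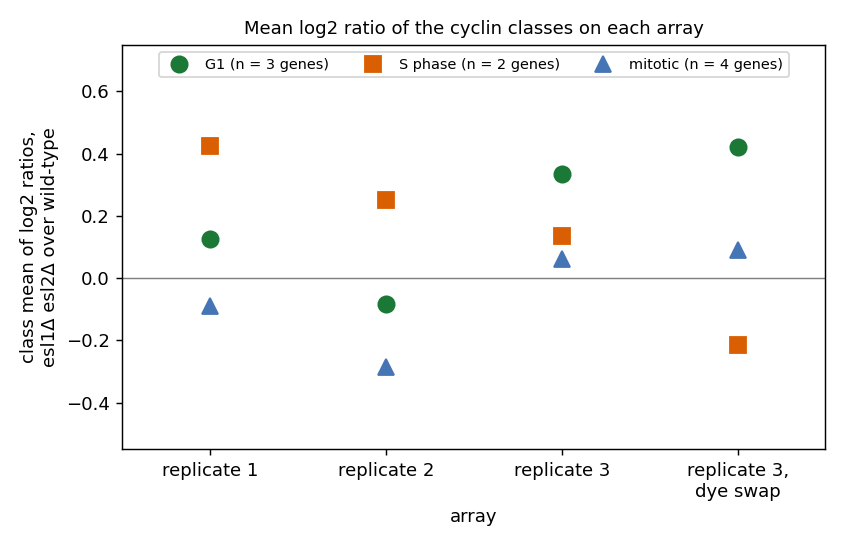
Mean log2 ratio (*esl1Δ esl2Δ* over wild-type) of the 3 G1, 2 S-phase and 4 mitotic cyclins on each of the 4 arrays. The G1 mean lies above the mitotic mean on all 4 arrays, by 0.20 to 0.33, while the S-phase mean changes place.

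Both S-phase cyclin genes have a mitotic cyclin gene as a neighbor. In the RefSeq annotation *CLB5* lies next to *CLB2* and *CLB6* next to *CLB1*, each pair on opposite strands. The log2 ratio of *CLB5* exceeded that of *CLB2* by 0.64, 0.40 and 0.20 in the replicates, a difference of 0.42 ± 0.22 (SD, n = 3). For *CLB6* minus *CLB1* the difference was 0.63 and 0.90 in replicates 1 and 2 and −0.60 in replicate 3.

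The partners of the cyclins were measured on the same arrays. Of 9 genes for Cdc28 and its direct partners and inhibitors, 0 had an adjusted or unadjusted p below 0.05 by limma. Over all genes the shares were 0.112% and 13.3%, and the lists below are read against the same shares. The median log2 ratio of the 9 genes was −0.03 (−0.11 without replicate 3). *CDC28*, the kinase itself, gave 0.07, −0.0014 and −0.13. *SIC1*, the inhibitor that holds Clb kinases off until S phase, had the lowest mean of the list, with 0.04, −0.59 and −0.40 (mean −0.32 ± 0.32, SD, n = 3; limma adjusted p = 0.444). *FAR1*, which inhibits Cln kinases after pheromone, had the highest mean, 0.22, with −0.27 and 0.04 in replicates 1 and 2 but 0.90 in replicate 3 (limma adjusted p = 0.717).

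The factors that transcribe the cyclin genes were likewise not called. Of the 8 G1/S factors and regulators 0 passed the limma test with adjustment, against 0.112% of all genes, and 0 without it, against 13.3%. Their means ran from −0.13 for *XBP1*, a stress-induced repressor, to 0.13 for *NRM1*, the MBF corepressor. Of the 9 G2/M and M/G1 factors 0 passed in the same way, against the same shares of all genes. The means of these factors ran from −0.15 for *SWI5*, an activator of M/G1 genes, to 0.20 for *YOX1*, a repressor of M/G1 genes. *YOX1* stood at 0.52 and 0.41 in replicates 1 and 2 and at −0.33 in replicate 3.

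The machinery that destroys cyclins, namely the anaphase-promoting complex (APC) with its activators and the SCF ubiquitin ligase with its adaptors, had a median log2 ratio of −0.16, with medians of −0.09, −0.11 and −0.18 in the replicates. Without replicate 3 the median was −0.08. Of its 14 genes 0 passed the limma test, 2 had an unadjusted p below 0.05 as lower, against 5.39% of all genes, and 8 were lower in all 3 replicates, against 18.5%. *CDC16*, an APC subunit, was the lowest at −0.40, −0.61 and −0.29 (mean −0.43 ± 0.16, SD, n = 3; limma adjusted p = 0.247). *APC11*, the catalytic RING subunit of the APC, was the highest, with a mean of 0.30 from 0.22, 0.70 and −0.03.

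Other genes that peak with the cyclins were set beside them. Of 26 late G1 genes driven by SBF and MBF, 0 had an adjusted p below 0.05 by limma, against 0.112% of all genes. At an unadjusted p below 0.05 there were also 0, against 13.3%. The median log2 ratio of these late G1 genes was 0.02 (−0.06 without replicate 3). In all replicates 5 were higher and 3 lower, near or below the shares of 18.7% and 18.5% over all genes. *HO*, the mating-type switching endonuclease, had the highest mean, 0.43, with 0.10 and 0.17 in replicates 1 and 2 and 1.02 in replicate 3. *PCL1*, a cyclin of the kinase Pho85, had the lowest, −0.21. Of the 19 genes that peak with *CLB2* in G2/M, 0 were called and 2 had an unadjusted p below 0.05 as lower, against 5.39% of all genes. In all replicates 0 were higher, against 18.7% of all genes, and 7 were lower, against 18.5%. Their median was −0.20 and −0.18 in replicates 1 and 2 and 0.01 in replicate 3. *WSC4*, a cell wall sensor gene, had the lowest mean, −0.46, from 0.10, −0.47 and −1.03, and *APC1*, a scaffold subunit of the APC, the highest with 0.03.

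Of the 20 genes of the *SIC1* cluster, which are expressed from late mitosis into G1, 0 were called by limma, 3 had an unadjusted p below 0.05 as lower, against 5.39% of all genes, and 1 was past 2-fold as lower, against 0.4%. The 1 gene was *CTS1*, the endochitinase that separates daughter from mother cells. At −0.85, −1.46 and −0.71 (mean −1.01 ± 0.40, SD, n = 3; limma adjusted p = 0.168) it was lower by more in every replicate than any cyclin was on any array. The highest mean of the cluster, 0.16, was that of *PCL9*, another Pho85 cyclin. The median log2 ratio of the cluster was −0.23, with medians of −0.12, −0.27 and 0.07 in the replicates, and 7 of its genes were lower in all replicates, against 18.5% of all genes. This median depended on the setting, with −0.10 without replicate 1, −0.08 without replicate 2, −0.18 without replicate 3 and −0.05 with a dye term. In the other settings it lay between −0.24 (dye swap left out) and −0.19 (median centring).

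**Figure D4:**
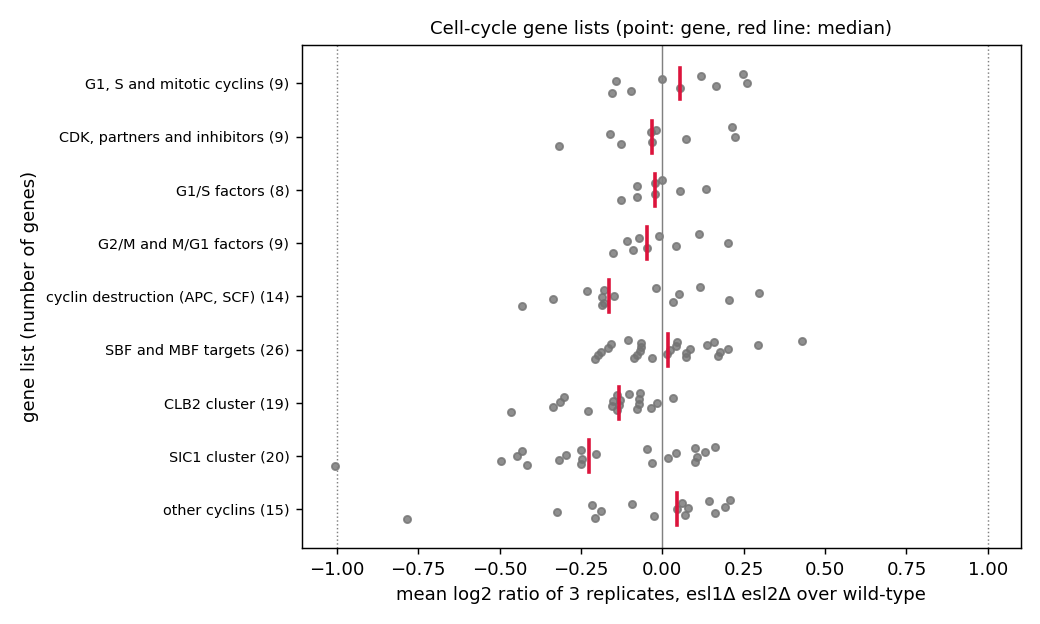
Mean log2 ratio of 3 replicates (*esl1Δ esl2Δ* over wild-type) for the genes of 9 cell-cycle lists, each point a gene and each red line a median, the dotted lines marking 2-fold. The cyclins lie between −0.16 and 0.26, and the gene past 2-fold is *CTS1* in the *SIC1* cluster.

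Among 15 genes for Pho85, its cyclins and cyclins that serve transcription, 0 had an adjusted p below 0.05 by limma and 2 had an unadjusted p below 0.05 as lower, against 5.39% of all genes. *PCL5*, a Pho85 cyclin that targets the amino acid regulator Gcn4 for destruction, had the lowest mean, from −0.72, −1.39 and −0.24 (mean −0.78 ± 0.58, SD, n = 3; limma adjusted p = 0.282). *SSN8*, the cyclin C of the Mediator kinase module, had the highest at 0.21.

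By the Euclidean distance between log2 ratios over the 4 arrays, the genes most like *CLB5*, the cyclin with the largest mean, were *UBC9* (distance 0.149), *MTC3* (0.165) and *CAD1* (0.177), out of 5733 genes well above background on all 4 arrays. Their mean log2 ratios were 0.28, 0.31 and 0.22. The distance counts both arrays of replicate 3. On its first array and its dye swap *CLB5* stood at 0.56 and 0.10. There *UBC9* stood at 0.50 and 0.15, *MTC3* at 0.54 and 0.18, and *CAD1* at 0.39 and 0.12. The likeness thus includes a shared gap between the dye orders. *UBC9* encodes the SUMO-conjugating enzyme and *CAD1* a transcription factor of the AP-1 family.

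Markers of cell type and growth state were set beside these values. Of 7 genes that mark *MATa* haploids, 0 were called by limma, 4 had an unadjusted p below 0.05 as lower, against 5.39% of all genes, and 5 were lower in all replicates, against 18.5%. All 7 were well above background on all arrays. Their summed normalized level was 52410 to 73344 units in the mutant, against 64729 to 90666 in the wild-type, a log2 ratio of −0.30, −0.30 and −0.31 in the replicates. *MFA1*, which encodes the a-factor pheromone, had the lowest mean (−0.73, limma adjusted p = 0.168) and *ASG7*, an a-specific gene, the highest (0.28). Of the 4 *MATα* markers 0 had an unadjusted p below 0.05 by limma, against 13.3% of all genes, and 2 were well above background on all arrays. Their sum was 1086 to 1273 units in the mutant and 1176 to 1432 in the wild-type. The log2 ratio of this sum was also below 0 in each replicate, at −0.17, −0.11 and −0.27. The means of the 4 markers lay between −0.29 for *STE3*, the a-factor receptor, and 0.15 for *MF(ALPHA)1*, an alpha-factor gene. The 6 meiotic markers, of which 0 were called and 1 had an unadjusted p below 0.05 as higher (7.91% of all genes did), summed to 2381 to 4397 units in the mutant and 2079 to 4540 in the wild-type. Their means lay between −0.08 for *HOP1*, of the meiotic chromosome axis, and 0.50 for the sporulation gene *SPS4*.

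The 14 stress and slow-growth genes differed between replicates, with median log2 ratios of 0.36, −0.01 and −0.37. Of them 0 were called and 1 had an unadjusted p below 0.05 as lower, against 5.39% of all genes. Their sum was 61833 to 95373 units in the mutant and 67847 to 143819 in the wild-type, a log2 ratio of 0.35, −0.13 and −0.66 in the replicates. *SSA4*, a heat-induced Hsp70 chaperone, had the lowest mean of the list (−0.57) with 0.50 and 0.05 in replicates 1 and 2 and −2.26 in replicate 3, and *SPI1*, a cell wall protein gene of stationary cells, the highest (0.54). The part of growth state or cell type in the cyclin ratios was not tested.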

How the data were processed

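Total RNA (500 ng per sample, per the labels) was hybridized to two-color Agilent yeast arrays. The authors deposited, for each spot, median intensities of signal and local background without normalization, written by Feature Extraction 10.1.1.1. Its own log10 ratio, red over green, is also in the deposited files and equals that of the series table. The study used GeneSpring, with no test stated.

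Here limma 3.58.1 (R 4.3.3) was used. Background was treated with normexp (offset 50), arrays with loess, and strain levels with Aquantile. Control spots (536) and outlier spots (291 to 486 per array) were left out. Spots of a probe were averaged, and the dye swap was turned and averaged with its array. Of 6256 probes, 5756 matched RefSeq locus tags (R64). The deposited intensities had channel medians of 1660 to 5186, and 92.4% to 98.0% of spots were well above background. Replicate number limits precision. The log2 ratios of 3 replicates were tested against 0 (two-sided, Benjamini-Hochberg over 6254 genes, threshold 0.05), after a check on simulated data of 6254 genes with 200 changed. Alternatives covered background, normalization, spot summary, log ratio source, dim probes, dye swap, dye term, pairing of channels, left-out replicates and fold threshold.

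Named genes are the cyclins, the deleted genes, *CDC28*, *SIC1*, list members past a threshold or with the highest or lowest mean, and the 3 genes most like the leading cyclin. Lists came from general knowledge, and members and lists were chosen with earlier results of these data known. Cyclin sequences were not used here.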

Additional observations from a re-analysis of the deposited data

How the results depend on the processing

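Of 126 values of the 9 cyclins under 14 alternatives, 115 kept their direction and their side of the limma threshold, 10 changed sign and 1 gained a call. *CLB4*, whose mean was near 0, changed sign without the dye swap (0.014). With all 4 arrays and a dye term, a fit that weighs the dye swap as much as the other arrays together, *CLB1* (0.011), *CLB2* (0.022) and *CLB6* (−0.16) changed sign. Leaving out 1 replicate at a time moved the means between −0.15 and 0.23 for *CLN2*, −0.31 and 0.037 for *CLB1*, −0.15 and 0.0072 for *CLB3*, −0.035 and 0.016 for *CLB4* and −0.0060 and 0.45 for *CLB6*. It called 0 or 1 cyclin, the 1 being *CLB6* without replicate 3. In the settings run, 0 cyclins were past 2-fold or, in the main setting, past 1.5-fold, and the G1 class exceeded the mitotic class by 0.21 to 0.28. The other class differences were less steady. The S-phase class exceeded the mitotic class by 0.035 (dye term) to 0.525 (without replicate 3), and the G1 class minus the S-phase class changed sign, from −0.317 without replicate 3 to 0.245 with the dye term. The genes of the whole array called as higher were 4 with median centring, 1 with medians of spots, and 0 with the software's log ratio, the series table or the dye swap alone for replicate 3, against 2 in the main setting. Those called as lower were 1 with the software's log ratio or the series table, against 5. Leaving out 1 replicate gave 0 to 323 called as higher (323 without replicate 3) and 2 to 339 as lower, and 19 to 34 past 2-fold as higher and 19 to 38 as lower. A threshold of 1.5-fold gave 153 higher and 82 lower genes. The channels of an array deviated together across genes (correlations of 0.785, 0.758 and 0.713), which pairs them. Without this replicate block 0 genes were called as higher and 5 as lower, and 0 cyclins were called. The cause of these shifts was not tested. The alternative of mean spot signals was not run, since the values used here are medians.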
